A study of Mus musculus with 12 samples.

Results

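The genes described here are 42 lysosome and autophagy genes, chosen by symbol from a list of lysosomal hydrolases, lysosomal membrane proteins, subunits of the vacuolar proton pump (V-ATPase) and autophagy genes. All 42 were found among the 35275 genes of the deposited expression table, and all 42 had a mean level of at least 0.5 FPKM (a gene's sequenced fragments corrected for transcript length and library depth), the minimum used for testing, which 12466 genes reached. Lysosomes are acidic organelles in which hydrolases break down proteins, glycans and lipids that arrive by endocytosis or by autophagy, the pathway that encloses cytoplasm in a membrane and delivers it for digestion. The V-ATPase acidifies the lumen, and the transcription factor TFEB, which the nutrient-sensing kinase complex mTORC1 holds in the cytoplasm, is known to activate many of the genes. In liver, hepatocytes use the pathway to turn over organelles and lipid droplets, and macrophages carry abundant lysosomes.

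Whole-liver RNA was sequenced from 4 groups of 3 mice: WT mice on chow (WT chow), Pctp-/- mice on chow (KO chow), WT mice on the MCD diet (WT MCD) and Pctp-/- mice on the MCD diet (KO MCD). Pctp-/- mice lack phosphatidylcholine transfer protein (PC-TP) in the whole body, so the deletion is not limited to hepatocytes, and the labels name no allele or treatment that all groups share. The MCD diet is depleted of methionine and choline, and is used to induce steatosis and liver damage. Age, strain and time on the diet are not given for these mice in the sources used here.

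The libraries held 30486576 to 55179468 uniquely mapped reads. FPKM of Pctp, the deleted gene, was 2.04 ± 0.746 (SD, n = 3) in WT chow and 0.420 ± 0.127 (SD, n = 3) in KO chow, and 5.54 ± 2.18 (SD, n = 3) in WT MCD against 0.259 ± 0.0909 (SD, n = 3) in KO MCD, with no overlap between genotypes on either diet. The 8 hepatocyte markers summed to 41133 to 46326 FPKM in chow libraries and to 54082 to 75520 FPKM in MCD libraries, so the defining markers of the labelled tissue were abundant in every library. The single markers were split on MCD, with 1 of the 8 called higher and 3 lower in WT livers (median -0.36), and 2 higher and 2 lower in Pctp-/- livers (median 0.02). The sum thus does not stand for each marker. Chow and MCD libraries were set apart by read quality, with an error rate of 0.03% in every chow library and 0.01% in every MCD library, and 77.6 to 79.4% against 85.7 to 87.5% uniquely mapped reads, so diet and sequencing set cannot be told apart. In the WT MCD group, replicate 1 was the highest of the 3 libraries for 30 of the 42 genes (71.4%), against 48.0% of all genes tested. KO chow replicate 1 was the highest for 23 genes (54.8%, against 29.9% of all genes) and KO MCD replicate 2 for 20 (47.6% against 25.4%). Values without WT MCD replicate 1 are given for some of the results that they move.

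**Figure D1:**
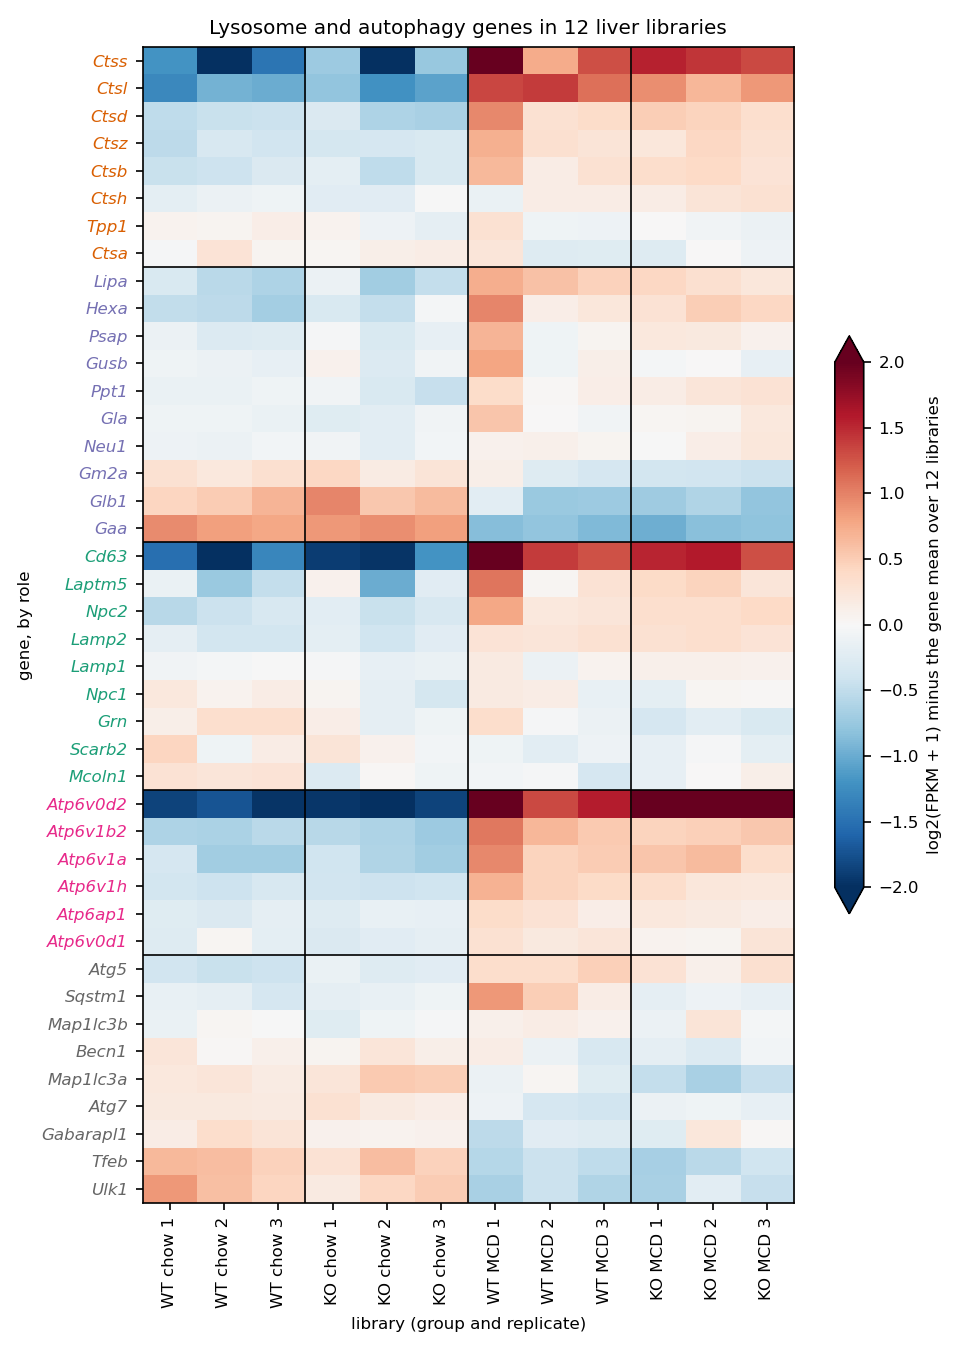
Heat map of the 42 genes (rows, grouped and coloured by role) in the 12 libraries (columns, by group and replicate). Colour is log2(FPKM + 1) minus the gene's mean over the 12 libraries, and values beyond -2 or 2 take the end colours. The V-ATPase rows are blue in every chow column but Atp6v0d1 in WT chow replicate 2, and red in every MCD column, while Gaa, Ulk1 and Tfeb show the opposite pattern, and WT chow and KO chow columns look alike for most genes.

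The first question was how the MCD diet moved these genes in each genotype. In WT livers 21 of the 42 genes were higher and 9 lower on MCD than on chow at an adjusted p under 0.05 (limma, Benjamini-Hochberg over all genes tested), beside 34.5% of all genes tested called higher and 22.5% called lower. In Pctp-/- livers 20 were higher and 7 lower, beside 26.0% and 24.4% of all genes. The median log2 fold change of the 42 genes was 0.34 in WT and 0.31 in Pctp-/- livers, against 0.11 and 0.04 over all genes tested. Fold changes here are differences of log2(FPKM + 1), which understate the change of genes with low FPKM. A median-of-ratios scaling between libraries moved the median of all genes in WT livers from 0.11 to 0.0062 and that of the 42 genes to 0.22. Without WT MCD replicate 1 the WT counts were 19 higher and 12 lower, with no share of all genes computed for that fit. The median of the 42 genes there was 0.20, beside 0.085 over all genes tested. The excess of the 42 genes over all genes was thus 0.11 without that library, against 0.23 with it. Gene positions given are on GRCm38 (mm10), from GENCODE M21.

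The same 18 genes were called higher in both genotypes and the same 7 lower in both. No share of all genes called alike in both genotypes was computed. Whether these joint counts exceed the agreement among all genes is thus not known. The 18 comprised Ctsb, Ctsd, Ctsl, Ctss, Ctsz, Hexa, Lipa, Ppt1, Cd63, Lamp2, Npc2, Atg5 and all 6 V-ATPase genes listed (Atp6ap1, Atp6v0d1, Atp6v0d2, Atp6v1a, Atp6v1b2 and Atp6v1h). The 7 were Gaa, Glb1, Gm2a, Tfeb, Ulk1, Atg7 and Map1lc3a. Laptm5, Psap and Sqstm1 passed as higher, and Gabarapl1 and Mcoln1 as lower, in WT livers alone, and Ctsh and Neu1 passed as higher in Pctp-/- livers alone. For the other 10 genes (Becn1, Ctsa, Gla, Grn, Gusb, Lamp1, Map1lc3b, Npc1, Scarb2 and Tpp1) neither diet effect passed. None of these differences between genotypes passed its own test, which is given further on.

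**Figure D2:**
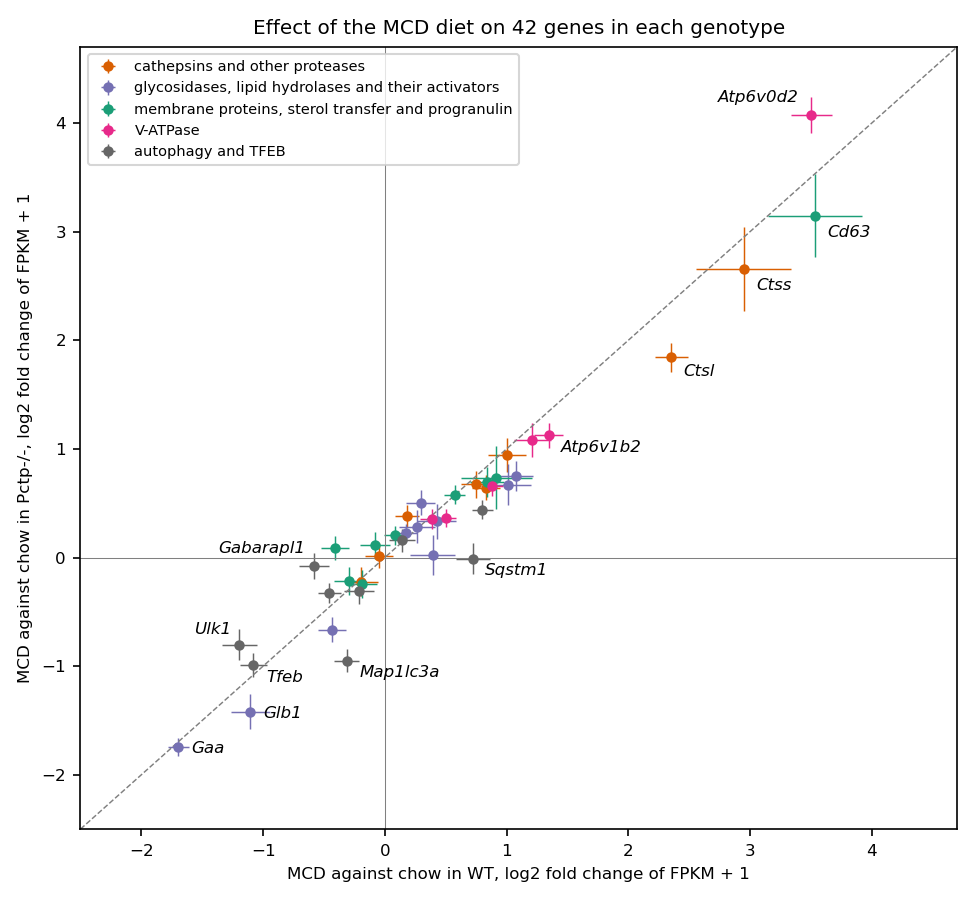
Diet effect in Pctp-/- livers (vertical axis) against that in WT livers (horizontal axis) for the 42 genes, both as log2 fold change of FPKM + 1, MCD against chow, with bars of 1 standard error and colours for the role. The dashed line marks equal effects. The estimates had the same sign for 38 of 42 genes, with no share of all genes computed. Sqstm1 and Map1lc3a lie farthest below the line among the autophagy genes.

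TFEB and its relatives are known to bind an E-box with the core CACGTG, and the promoters of the genes were searched for it. RefSeq windows of the GRCm38.p6 build, from 250 bases before to 50 bases after the start of transcription, were at hand for 34 of the 42 genes, as 38 windows. The palindrome CACGTG was in 31.6% of these windows (12 genes) and in 7.15% of all 32851 windows. The flanked form TCACGTGA, which contains it, was in 15.8% (6 genes) and 0.974% of all windows, and the 10-base form with 1 further base on each side was in 0 of the 38 and in 0.326% of all. Of the 12 genes with the core, 5 were called higher on MCD in WT livers (Ctsd, Ctsl, Atp6v0d1, Atp6v1a and Atg5), 4 lower (Gaa, Glb1, Mcoln1 and Atg7) and 3 neither (Ctsa, Gla and Lamp1). Of the 6 with TCACGTGA, 3 were called higher (Ctsd, Atp6v0d1 and Atp6v1a), 1 lower (Mcoln1) and 2 neither (Ctsa and Gla). Of all genes tested, 34.5% were called higher and 22.5% lower. A link between motif and diet effect was not tested. A match is a description of these letters and not of binding. The windows of Mcoln1 and Gla, which hold TCACGTGA too, are not printed. The windows given are those of the 3 genes with TCACGTGA that rose in both genotypes, that of Ctsa, which has 2 matches and was not called, and that of Gaa, which has the core alone and the largest fall on the log2(FPKM + 1) scale (as a ratio of mean FPKM, Glb1, also with the core alone, fell more in Pctp-/- livers, to 0.249 of its chow level against 0.284). The sequences run 5′ to 3′ on the strand of the gene, with TCACGTGA, or CACGTG in Gaa, in capitals, and a further CACGTG near the start of the Ctsd window is in lower case.
Ctsd (chr7:142387778-142388077, minus strand): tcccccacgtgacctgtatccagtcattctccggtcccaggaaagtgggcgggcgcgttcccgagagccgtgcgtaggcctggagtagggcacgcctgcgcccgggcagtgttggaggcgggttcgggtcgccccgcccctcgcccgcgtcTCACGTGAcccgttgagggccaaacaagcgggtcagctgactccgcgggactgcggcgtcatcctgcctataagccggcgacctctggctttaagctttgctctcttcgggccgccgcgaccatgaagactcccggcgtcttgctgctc
Atp6v0d1 (chr8:105566015-105566314, minus strand): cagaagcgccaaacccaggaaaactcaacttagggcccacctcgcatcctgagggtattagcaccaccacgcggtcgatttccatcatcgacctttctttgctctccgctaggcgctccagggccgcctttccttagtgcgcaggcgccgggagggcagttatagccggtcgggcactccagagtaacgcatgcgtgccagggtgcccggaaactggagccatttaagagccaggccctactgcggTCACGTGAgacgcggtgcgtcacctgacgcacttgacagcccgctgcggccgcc
Atp6v1a (chr16:44139210-44139509, minus strand): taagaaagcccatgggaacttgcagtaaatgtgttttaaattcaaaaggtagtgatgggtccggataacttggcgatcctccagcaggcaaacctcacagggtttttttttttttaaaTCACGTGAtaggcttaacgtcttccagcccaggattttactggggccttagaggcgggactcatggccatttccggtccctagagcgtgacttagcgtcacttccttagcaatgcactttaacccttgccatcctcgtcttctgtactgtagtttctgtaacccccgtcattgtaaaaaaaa
Ctsa (chr2:164833523-164833822, plus strand): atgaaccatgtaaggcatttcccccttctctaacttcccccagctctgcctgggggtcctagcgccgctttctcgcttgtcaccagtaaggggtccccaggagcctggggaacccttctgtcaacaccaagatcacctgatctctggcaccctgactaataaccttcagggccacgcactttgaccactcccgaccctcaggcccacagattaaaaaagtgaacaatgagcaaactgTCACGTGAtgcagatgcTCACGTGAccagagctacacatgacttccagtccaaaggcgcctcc
Gaa (chr11:119267713-119268012, plus strand): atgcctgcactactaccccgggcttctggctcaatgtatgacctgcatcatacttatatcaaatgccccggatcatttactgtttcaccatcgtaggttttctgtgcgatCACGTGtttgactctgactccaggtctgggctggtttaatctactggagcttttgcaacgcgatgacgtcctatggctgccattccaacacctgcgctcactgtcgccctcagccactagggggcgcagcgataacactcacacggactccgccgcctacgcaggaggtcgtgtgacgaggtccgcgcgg

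The proteases of the lysosome are mostly cathepsins, which cut proteins at acidic pH. Of the 8 measured, 5 were higher on MCD in WT livers and 6 in Pctp-/- livers, and none was called lower. Among all genes tested 34.5% were higher and 22.5% lower in WT, and 26.0% and 24.4% in Pctp-/- livers. Ctss (ENSMUSG00000038642, chromosome 3, 95526786 to 95556403, plus strand), which encodes the cathepsin S of antigen-presenting cells, stood at 13.8, 7.0 and 11.3 FPKM in the WT chow libraries and at 141, 56.0 and 82.3 FPKM in WT MCD. Its levels were 19.5, 6.47 and 19.0 FPKM in KO chow and 97.6, 90.4 and 84.2 FPKM in KO MCD. Every MCD library was thus above every chow library of either genotype, with a log2 fold change of 2.95 (SE 0.39, adjusted p = 5.7e-05) in WT and 2.66 (SE 0.39, adjusted p = 1.6e-04) in Pctp-/- livers. Ctsl, a cysteine protease of broad tissue distribution, rose by a log2 fold change of 2.35 (adjusted p = 1.3e-07) and 1.84 (adjusted p = 9.3e-07), from 104 ± 13.2 to 533 ± 56.9 FPKM (SD, n = 3) in WT and from 108 ± 16.9 to 387 ± 37.9 FPKM (SD, n = 3) in Pctp-/- livers. The aspartic protease gene Ctsd, which has TCACGTGA in its promoter window, went from 180 ± 5.41 to 372 ± 100.2 FPKM in WT and from 175 ± 25.3 to 335 ± 18.2 FPKM in Pctp-/- livers (SD, n = 3). Smaller rises were seen for Ctsb (0.75 and 0.68) and Ctsz (0.83 and 0.64 on the log2 scale, WT and Pctp-/-), which encode further cysteine proteases. Tpp1 and Ctsa did not pass in either genotype, with estimates of -0.05 and 0.02 for Tpp1, a tripeptide-releasing protease, and -0.19 and -0.22 for Ctsa, which also protects the galactosidase and neuraminidase in a complex. In the annotation, exons of Ctsd and Ctsl share bases with those of the same-strand genes Gm49369 and Gm49230, so their FPKM may hold reads of these.

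The glycosidases, lipid hydrolases and their activator proteins moved in both directions, as did all genes tested. Of the 10 measured, 4 were higher and 3 lower on MCD in WT livers, and the same numbers held in Pctp-/- livers. Gaa (ENSMUSG00000025579, chromosome 11, 119267887 to 119285454, plus strand), the acid alpha-glucosidase that breaks down glycogen in the lysosome, was 50.8, 46.4 and 45.0 FPKM in WT chow and 13.9, 14.5 and 13.5 FPKM in WT MCD. In KO chow it was 47.6, 49.8 and 46.4 FPKM, and in KO MCD 12.5, 13.9 and 14.3 FPKM. The diet groups were far apart relative to their spread, and the genotypes overlapped on each diet: the log2 fold change was -1.70 (SE 0.08, adjusted p = 4.4e-08) in WT and -1.75 (SE 0.08, adjusted p = 4.8e-08) in Pctp-/- livers. Glb1, the lysosomal beta-galactosidase, was 4.02, 4.27 and 4.95 FPKM in WT chow, 2.19, 1.23 and 1.23 FPKM in WT MCD, 6.31, 4.39 and 4.76 FPKM in KO chow and 1.27, 1.44 and 1.15 FPKM in KO MCD. Its fall (-1.10, adjusted p = 1.1e-04 in WT; -1.42, adjusted p = 2.1e-05 in Pctp-/-) left no overlap between diets, and its exons share bases with those of Tmppe on the same strand. Gm2a, the activator protein for ganglioside breakdown, was lower as well (-0.43 and -0.67). Lipa, the acid lipase that hydrolyses cholesteryl esters and triglycerides in the lysosome, rose from 56.9 ± 6.67 to 121 ± 11.7 FPKM in WT and from 59.9 ± 12.7 to 100.3 ± 6.44 FPKM in Pctp-/- livers (SD, n = 3; log2 fold change 1.08, adjusted p = 5.2e-05, and 0.75, adjusted p = 8.8e-04). Hexa, which encodes the alpha subunit of beta-hexosaminidase, rose by 1.01 and 0.67, and Ppt1, which removes palmitate from proteins, by 0.29 and 0.51. The WT call of Ppt1 stood close to the threshold (adjusted p = 0.047) and was lost in 16 of 21 alternatives. Among them was the fit without WT MCD replicate 1 (0.20, adjusted p = 0.19). Psap, the precursor of the saposins, passed in WT livers alone (0.43, adjusted p = 0.038), a call lost in 8 of 21 alternatives, among them all 3 scalings and the fits without WT MCD replicate 1 (0.20, adjusted p = 0.13), WT chow replicate 2 (0.40, adjusted p = 0.0998) or WT chow replicate 3 (0.41, adjusted p = 0.0897). In Pctp-/- livers its estimate was 0.33 (adjusted p = 0.10). The neuraminidase gene Neu1 passed in Pctp-/- livers alone (0.22, adjusted p = 0.042), a call lost in 13 of 21 alternatives, and Gla and Gusb, which encode alpha-galactosidase and beta-glucuronidase, passed in neither (0.27 and 0.28 for Gla, 0.39 and 0.02 for Gusb).

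**Figure D3:**
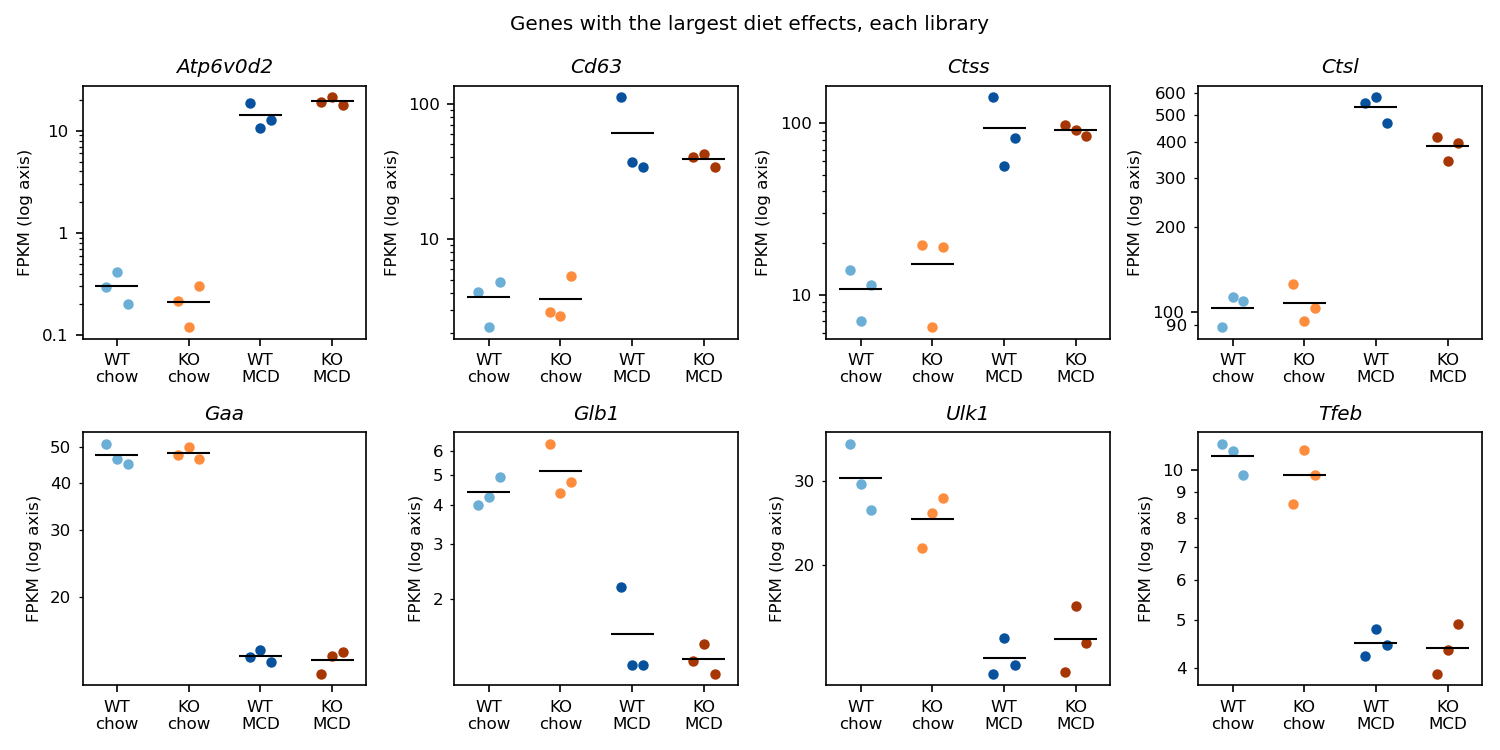
FPKM (log axis) of 8 genes in each library, by group, with a line at the group mean. In the upper row (Atp6v0d2, Cd63, Ctss and Ctsl) each MCD library lies above each chow library, and in the lower row (Gaa, Glb1, Ulk1 and Tfeb) each lies below.

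Among the membrane proteins, sterol transfer proteins and progranulin, 4 of 9 were higher and 1 lower on MCD in WT livers, and 3 were higher and none lower in Pctp-/- livers. Beside this stand 34.5% of all genes higher and 22.5% lower in WT, and 26.0% and 24.4% in Pctp-/- livers. Cd63 (ENSMUSG00000025351, chromosome 10, 128900989 to 128912822, plus strand), a tetraspanin of late endosomes, lysosomes and exosomes, was 4.08, 2.23 and 4.81 FPKM in WT chow and 111.1, 36.8 and 33.8 FPKM in WT MCD. In Pctp-/- livers it was 2.86, 2.68 and 5.31 FPKM on chow and 40.3, 42.1 and 34.0 FPKM on MCD. One WT library, MCD replicate 1, was far above the others, and the diet groups did not overlap. The log2 fold change was 3.53 (SE 0.38, adjusted p = 1.3e-05) in WT livers, 2.99 without that library, and 3.15 (SE 0.38, adjusted p = 4.0e-05) in Pctp-/- livers. Lamp2, a structural glycoprotein of the membrane with a role in chaperone-mediated autophagy, rose by 0.57 and 0.58 on the log2 scale, and Npc2, which hands cholesterol to the membrane protein NPC1, by 0.84 and 0.69. Laptm5, a lysosomal membrane protein of blood cells, was called in WT livers (0.91, adjusted p = 0.017) and lost its call without WT MCD replicate 1 (0.61, adjusted p = 0.081) or WT chow replicate 2 (0.77, adjusted p = 0.071). In Pctp-/- livers its effect was just short of the threshold (0.74, adjusted p = 0.052), with no overlap between the diets, and it passed in 7 of 21 alternatives.

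Lamp1, the usual marker of lysosomal membrane, had no called diet effect. It was 317, 322 and 331 FPKM in WT chow, 377, 306 and 348 FPKM in WT MCD, 325, 296 and 302 FPKM in KO chow and 354, 356 and 352 FPKM in KO MCD. The WT groups overlapped, and the KO MCD libraries lay above the KO chow libraries without passing the test: the diet effect was 0.08 (95% interval -0.11 to 0.27, adjusted p = 0.44) in WT and 0.20 (0.01 to 0.39, adjusted p = 0.071) in Pctp-/- livers, and the WT estimate turned below 0 under 3 of the scalings tried. The Lamp1 effect in Pctp-/- livers passed in 1 of 21 alternatives, the fit without WT MCD replicate 1 (adjusted p = 0.045). Npc1, the membrane cholesterol transporter, Scarb2, the receptor that carries glucocerebrosidase to the lysosome, and Grn, the progranulin gene, were also not called for diet, with estimates from -0.29 to 0.11. The fall of Scarb2 in WT livers passed in 4 of 21 alternatives, the 3 scalings and the fit without WT chow replicate 2. Mcoln1, the calcium channel TRPML1, was called lower in WT livers (-0.41, adjusted p = 0.0083) and had an estimate of 0.09 in Pctp-/- livers.

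The V-ATPase was the only role group called wholly in 1 direction, with 6 of 6 genes higher on MCD in both genotypes. Of all genes tested, 34.5% were called higher in WT and 26.0% in Pctp-/- livers. The median log2 fold change of the 6 was 1.05 in WT and 0.87 in Pctp-/- livers. One of the 6, Atp6v0d2, reached the minimum used for testing only through its MCD libraries. Its call upward was thus favoured by that filter and adds no support of its own, yet the 6 and both medians include it. The estimates of the other V-ATPase genes listed ran from 0.39 to 1.35 in WT and from 0.36 to 1.12 in Pctp-/- livers. Atp6v0d2 (ENSMUSG00000028238, chromosome 4, 19876841 to 19922605, minus strand), an isoform of the d subunit best known from osteoclasts and macrophages, was at 0.298, 0.412 and 0.203 FPKM in WT chow and at 18.9, 10.6 and 12.9 FPKM in WT MCD. It was at 0.215, 0.120 and 0.300 FPKM in KO chow and at 19.2, 21.2 and 17.9 FPKM in KO MCD. On the linear scale the group means differed 46.4-fold in WT and 91.9-fold in Pctp-/- livers, over a chow level below the minimum used for testing, and the log2 fold changes of FPKM + 1 were 3.50 (SE 0.17, adjusted p = 3.5e-08) and 4.08 (SE 0.17, adjusted p = 1.4e-08). Atp6v0d1, the d subunit isoform found in most tissues, was at 40.6 ± 4.55 FPKM in WT chow and 53.1 ± 1.87 FPKM in WT MCD (SD, n = 3), a rise of 0.39 that lost its call under median-of-ratios scaling (0.26, adjusted p = 0.055). The subunits of the ATP-hydrolysing V1 sector, Atp6v1b2 (1.35 and 1.12), Atp6v1a (1.21 and 1.08) and Atp6v1h (0.88 and 0.66), rose more on the log2 scale than the accessory subunit gene Atp6ap1 (0.50 and 0.36), though these differences between genes were not tested. Of 13 further V-ATPase genes tested, 7 were higher and none lower in WT livers, and 6 were higher and 1 lower, Atp6v0a1, in Pctp-/- livers.

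Among the autophagy genes and Tfeb more were called lower than higher, with 2 of 9 higher and 5 lower on MCD in WT livers and 1 higher and 4 lower in Pctp-/- livers. Over all genes tested 34.5% were higher and 22.5% lower in WT, and 26.0% and 24.4% in Pctp-/- livers. Tfeb (ENSMUSG00000023990, chromosome 17, 47737030 to 47792419, plus strand) was 11.3, 10.9 and 9.74 FPKM in WT chow and 4.23, 4.80 and 4.46 FPKM in WT MCD. In KO chow it was 8.53, 10.9 and 9.74 FPKM, and in KO MCD 3.91, 4.35 and 4.92 FPKM. Its mRNA was thus at less than 0.5 of the chow level on MCD in both genotypes (ratio 0.423 and 0.451; log2 fold change -1.08, adjusted p = 8.7e-06, and -0.99, adjusted p = 2.2e-05). Ulk1, the kinase that starts autophagosome formation, was 35.9, 29.6 and 26.0 FPKM in WT chow, 11.8, 14.0 and 12.3 FPKM in WT MCD, 21.7, 25.7 and 27.6 FPKM in KO chow and 11.8, 16.4 and 13.6 FPKM in KO MCD. These levels did not overlap between diets, and the log2 fold change was -1.19 (adjusted p = 2.7e-05) in WT and -0.80 (adjusted p = 6.2e-04) in Pctp-/- livers. Atg7, the enzyme that activates ATG8 proteins such as LC3 for lipid attachment, was lower (-0.46 and -0.33), and Atg5, part of the complex that completes the attachment, was higher (0.80 and 0.44) in both genotypes. Becn1, a subunit of the lipid kinase complex of early autophagy, was not called (-0.21 and -0.30). Its fall in Pctp-/- livers (adjusted p = 0.056) passed in 7 of 21 alternatives.

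The ATG8 family and the cargo receptor p62 differed from each other. Map1lc3b, the LC3 gene most used as an autophagy marker, was 24.7, 28.0 and 27.1 FPKM in WT chow, 29.3, 30.2 and 28.9 FPKM in WT MCD, 22.8, 25.4 and 26.6 FPKM in KO chow and 25.0, 32.8 and 26.4 FPKM in KO MCD, and its diet effects of 0.14 (95% interval -0.09 to 0.37) and 0.16 (-0.07 to 0.39) were not called. Map1lc3a, its close relative, was lower on MCD in both genotypes (-0.31, adjusted p = 0.020, and -0.95, adjusted p = 1.6e-05), and the WT effect was not called without WT MCD replicate 3 (-0.25, adjusted p = 0.085) or WT chow replicate 2 (-0.29, adjusted p = 0.062). Gabarapl1, of the GABARAP branch, was called lower in WT livers (-0.58, adjusted p = 0.0014) and had an estimate of -0.08 in Pctp-/- livers. Sqstm1 (ENSMUSG00000015837, chromosome 11, 50199366 to 50210827, minus strand), which encodes p62 and is itself a target of the antioxidant factor NRF2, was 199.0, 193.9 and 174.4 FPKM in WT chow and 400.7, 309.8 and 244.9 FPKM in WT MCD. In Pctp-/- livers it was 193.8, 198.6 and 207.5 FPKM on chow and 194.4, 205.0 and 196.2 FPKM on MCD. Only the WT MCD libraries were high, and they were spread widely: the diet effect was 0.72 (SE 0.14, adjusted p = 9.2e-04) in WT livers, 0.54 without WT MCD replicate 1, and -0.01 (95% interval -0.32 to 0.30) in Pctp-/- livers.

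**Figure D4:**
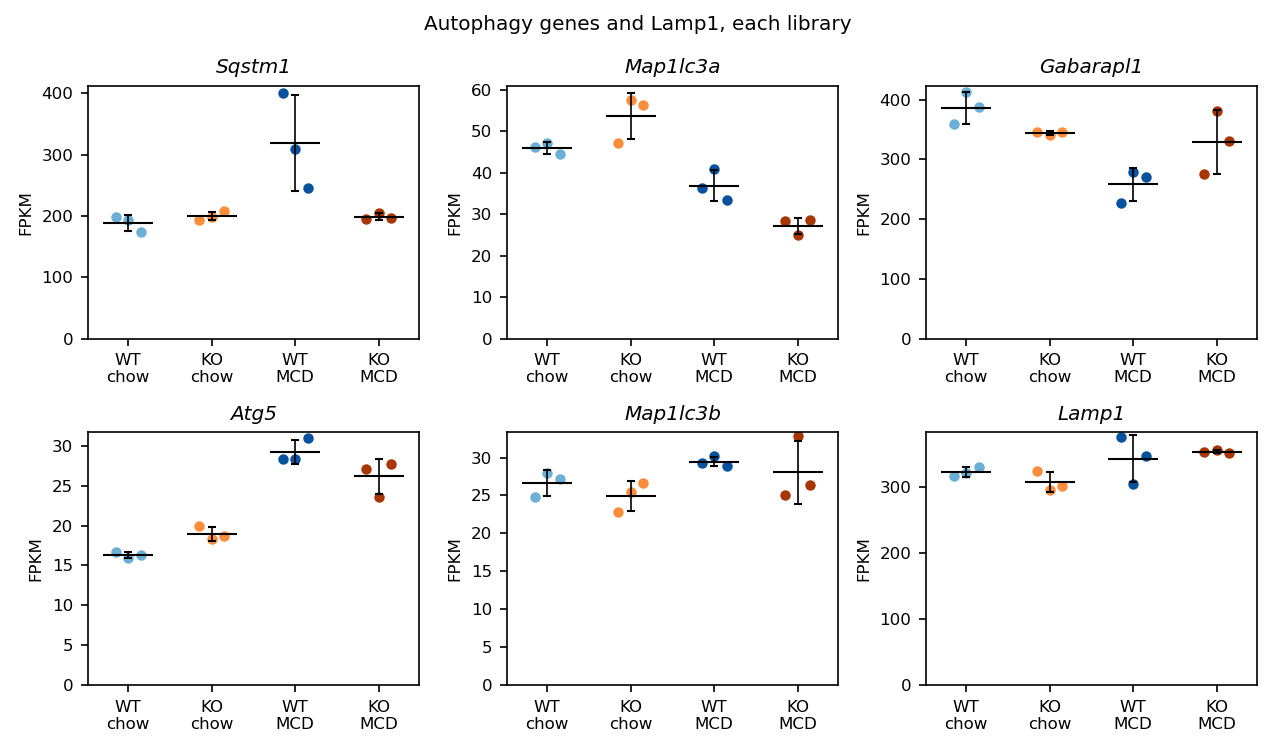
FPKM of Sqstm1, Map1lc3a, Gabarapl1, Atg5, Map1lc3b and Lamp1 in each library, by group, with a line at the mean and bars of 1 SD (n = 3). Sqstm1 is at 245 FPKM or more in the WT MCD libraries and at 208 FPKM or less in all the others, and Map1lc3a is lowest in the KO MCD libraries.

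The second question was whether loss of PC-TP moved these genes on either diet. On chow 0 of the 42 genes were called, beside 0.136% of all genes tested, and the lowest adjusted p was 0.38, for Mcoln1. The deleted gene, Pctp, was called on MCD (limma, -2.33, adjusted p = 6.2e-04) but not on chow (-1.07, adjusted p = 0.15). The 0 calls on chow thus do not show that none of the 42 genes changed. At an unadjusted p under 0.05, 1 gene was higher and 3 lower, beside 6.98% of all genes in either direction. The 4 were Atg5 (0.21), Mcoln1 (-0.38), Npc1 (-0.31) and Grn (-0.31 on the log2 scale). WT chow and KO chow libraries did not overlap for 5 of the 42 genes, beside 10.6% of all genes, and the median log2 fold change of the 42 was 0.00072.

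On MCD 0 of the 42 genes were called either, beside 0.818% of all genes. At an unadjusted p under 0.05, 2 were higher and 6 lower in Pctp-/- livers, beside 16.3% of all genes in either direction. The genotypes did not overlap for 8 genes, all lower in Pctp-/- livers, beside 5.50% of all genes higher and 21.1% lower without overlap. The median of the 42 genes was -0.076, close to the -0.093 of all genes tested, and it was 0.020 under median-of-ratios scaling and 0.037 without WT MCD replicate 1. Sqstm1 had the lowest adjusted p, with a log2 fold change of -0.65 (SE 0.14, adjusted p = 0.057), and the range of adjusted p over the alternatives was 0.0054 to 0.18. The lowest value came without WT MCD replicate 3 (-0.82), the lowest of the 3 WT MCD libraries. Map1lc3a was next, at 36.3, 40.8 and 33.5 FPKM in WT MCD and 28.2, 25.0 and 28.5 FPKM in KO MCD, without overlap (-0.42, adjusted p = 0.087). Ctsl (-0.46, adjusted p = 0.13), Grn (-0.36) and Atp6v1h (-0.25) also had lower estimates without overlap, and Gabarapl1 (0.34) and Atp6v0d2 (0.47) had higher estimates with overlapping groups. Library values of Map1lc3a were added after they were seen.

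The third question was whether the diet effect differed between genotypes. For 26 of the 42 genes the estimate was larger in size in WT livers, a count for which no share of all genes was computed. Diet calls over all genes were also more in WT, at 7110 against 6276 in Pctp-/- livers. The median difference of the 42 genes, Pctp-/- minus WT, was -0.069 beside -0.096 over all genes. The test of the difference called 0 of the 42 genes, beside 0.0963% of all genes, and at an unadjusted p under 0.05 it had 3 with a higher and 4 with a lower effect in Pctp-/- livers, beside 15.1% of all genes. The 4 were Sqstm1 (-0.73, 95% interval -1.16 to -0.30, adjusted p = 0.14), Map1lc3a (-0.64, -0.95 to -0.32, adjusted p = 0.10), Ctsl (-0.51) and Atg5 (-0.36). The 3 were Atp6v0d2 (0.57), Gabarapl1 (0.51) and Mcoln1 (0.50). For 1 of the 42 genes, Atg5, the libraries of the genotypes did not overlap on either diet and lay in opposite directions, beside 2.03% of all genes tested. Without WT MCD replicate 3, Sqstm1 passed (-0.91, adjusted p = 0.032), and without WT MCD replicate 1 it did not (-0.55, adjusted p = 0.17).

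Markers of other liver cells were read beside all genes tested, of which 34.5% were called higher on MCD in WT and 26.0% in Pctp-/- livers. The lists other than that of macrophages and monocytes had 3 to 7 markers tested. Of 16 macrophage and monocyte markers tested, 15 were higher on MCD in WT livers and 8 in Pctp-/- livers, and none was lower, with a median log2 fold change of 1.25 and 0.55. The test of the difference between these diet effects called 0 of the 16 (limma, lowest adjusted p = 0.22). The knockout called 0 of the 16 on either diet. The 17 markers listed summed to 135 to 248 FPKM in WT chow, 139 to 345 FPKM in KO chow, 454 to 850 FPKM in WT MCD and 485 to 574 FPKM in KO MCD. Gpnmb, a glycoprotein of lipid-laden macrophages, went from at most 0.0848 FPKM in the chow libraries to between 14.2 and 69.9 FPKM on MCD. It thus reached the minimum used for testing only through the MCD libraries. Gpnmb and Trem2 were listed at 0 in 1 KO chow library each. Clec4f, which marks resident Kupffer cells, had a diet effect of 0.92 in WT and 0.17 in Pctp-/- livers, the latter not called. Of the markers for stellate cells 3 of 7 were higher in each genotype, for lymphocytes and neutrophils 2 of 5 in each, for endothelial cells 2 of 6 in WT and none in Pctp-/- livers, and for bile duct cells none of 3 was higher, while 1 of them, Sox9, was lower in Pctp-/- livers (-1.17, adjusted p = 0.0030), which was picked out once its values were known. Their part in the rises of Ctss, Laptm5, Cd63, Atp6v0d2 and the other genes was not tested, and in whole liver a change in the number of cells of a type cannot be told apart from a change in RNA per cell.

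**Figure D5:**
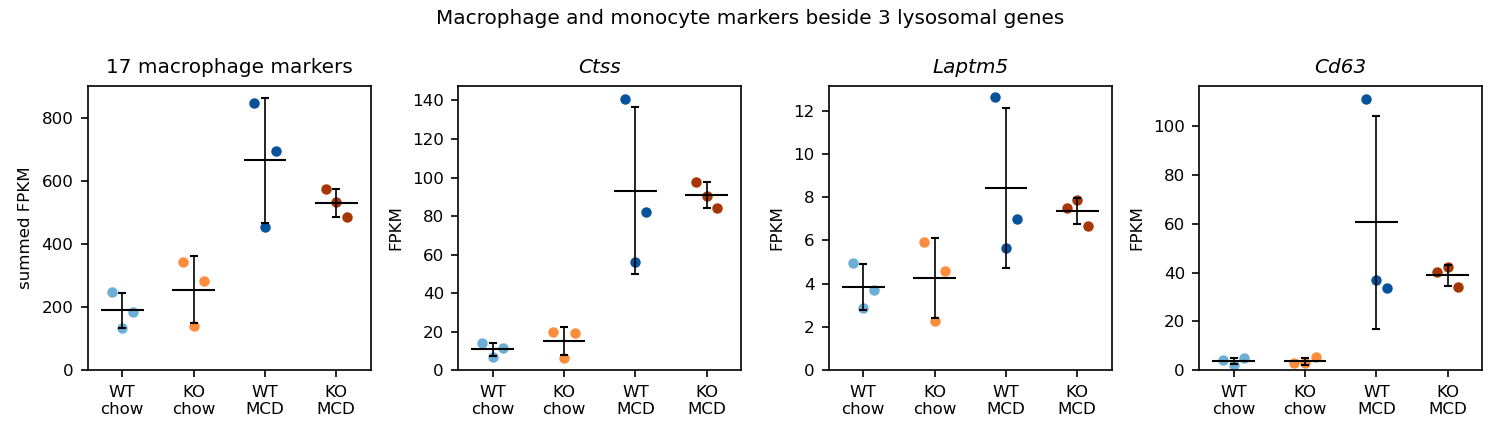
Summed FPKM of the 17 macrophage and monocyte markers (left panel) and FPKM of Ctss, Laptm5 and Cd63 in each library, by group, with a line at the mean and bars of 1 SD (n = 3). WT MCD replicate 1 is the highest library in all 4 panels.

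The wider pathway was followed in 131 other genes, of which 126 were tested. On MCD 51 were higher (40.5%) and 35 lower (27.8%) in WT livers (median 0.09), beside 34.5% and 22.5% of all genes tested. In Pctp-/- livers 43 were higher (34.1%) and 29 lower (23.0%; median 0.15), beside 26.0% and 24.4% of all genes. For the knockout on chow, the knockout on MCD and the difference of the diet effects 0 were called by limma, and 14 (11.1%), 23 (18.3%) and 16 (12.7%) had an unadjusted p under 0.05, beside 6.98%, 16.3% and 15.1% of all genes. Among 32 other lysosomal enzymes 11 were higher (34.4%, close to the share of all genes) and 9 lower in WT, and 9 and 7 in Pctp-/- livers. Of 25 other membrane and sorting proteins 13 were higher and 6 lower in WT, and 8 and 5 in Pctp-/- livers, led upward by Cd68 (2.49 and 1.78), itself a macrophage marker, and downward by the lipid transporter Abca2 (-1.46 and -1.64). Atp6v0e, a membrane-sector subunit of the V-ATPase, rose by 1.32 and 1.18.

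Other autophagy genes split, with 10 of 38 higher and 15 lower in WT, and 12 and 13 in Pctp-/- livers. For all genes the shares were 34.5% higher and 22.5% lower in WT, and 26.0% and 24.4% in Pctp-/- livers. Atg2a, which transfers lipids to the growing autophagosome membrane, had the largest fall among the pathway genes called (-1.84 and -1.80), followed in the autophagy list by Calcoco1, a receptor for autophagy of the endoplasmic reticulum, in WT (-1.16) and by the protease Atg4d in Pctp-/- livers (-1.34). Of 18 regulators of mTORC1 and of the TFEB family, 10 were higher and 5 lower in WT, and 8 and 3 in Pctp-/- livers. Chosen after their values were seen, Tsc2, an inhibitor of mTORC1 signalling, was lower (-1.08 and -0.89), Rheb, its direct target and an activator of mTORC1, was higher (0.82 and 0.53), and Tfe3, a relative of TFEB, was lower (-0.42 and -0.72). The other regulators called are not named, and the activity of mTORC1 was not measured.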

How the data were processed

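Liver RNA of 12 mice, 3 in each of 4 groups given by the labels, was sequenced by the study's provider. The deposited files are a matrix of FPKM, computed by the authors for each gene in each library, and a table of read totals as whole-read counts with mapping and quality measures as percentages, used here for depth and to compare the libraries' read quality. The submitters' processing notes name the mm10 build, while the aligner, counting tool, annotation and strand setting are not given in the sources used here. FPKM were used without rescaling. No count per gene was at hand, so the study's Wald test was not run. Depth and the 3 mice a group limit the precision.

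Of 35275 genes, 12879 were at 0 in every library. The 12466 with a mean FPKM of at least 0.5 were fitted with limma version 3.58.1 in R version 4.3.3 on log2(FPKM + 1), with 1 mean per group over all 12 libraries and a mean-variance trend. Tests were two-sided with Benjamini-Hochberg adjustment over all genes tested, and an adjusted p under 0.05 was called with no minimum fold change. Symbols (34490 identifiers) and exon overlaps come from GENCODE M21 (GRCm38), in which 3 of the 42 genes share exon bases with a gene on the same strand and 13 with one on the opposite strand only.

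The 42 genes and the other lists were chosen with earlier results of these data known. Every library value is given for the 3 largest rises and 3 largest falls among genes called for diet in each genotype whose groups do not overlap, and for Tfeb, Lamp1, Sqstm1 and Map1lc3b. From the other pathway lists the 3 largest rises and falls are named, except 1 gene that is not reported here. Other genes are given by fold change, and those outside this rule are said to be so. No library pair held identical values, and library correlations within groups were 0.980 to 0.992. Alternatives were the pseudocount, the filter, the scaling, the libraries in the fit, the trend, a replicate block and leaving out each library. Figures were drawn with matplotlib version 3.10.9.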

Additional observations from a re-analysis of the deposited data

Results flagged for a closer look

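Atg5 is set apart because its knockout effects had opposite directions on the 2 diets with no overlap of the libraries on either. This pattern held for 2.03% of all genes tested, and Atg5 alone showed it among the genes described here. The pattern was thus about as frequent among these genes as among all genes, and it does not mark Atg5 out from that background. Atg5 was 16.7, 15.9 and 16.3 FPKM in WT chow against 20.0, 18.3 and 18.7 FPKM in KO chow. On MCD it was 28.3, 28.3 and 30.9 FPKM in WT MCD against 27.1, 23.6 and 27.7 FPKM in KO MCD. The difference of the diet effects, Pctp-/- minus WT, was -0.36 on the log2 scale (limma, 95% interval -0.63 to -0.10, adjusted p = 0.19), and neither knockout effect was called (0.21 on chow, adjusted p = 0.66, and -0.15 on MCD, adjusted p = 0.40).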

How the results depend on the processing

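Of the 30 diet calls in WT livers 25 held in every alternative, and of the 27 in Pctp-/- livers 26. Calls lost in some were those of Psap, Ppt1, Atp6v0d1, Map1lc3a and Laptm5 in WT and of Neu1 in Pctp-/- livers, and no called gene changed direction. Other genes gained a call in some, among them Scarb2 in WT and Laptm5, Becn1 and Lamp1 in Pctp-/- livers. The counts ranged over 18 to 22 higher and 8 to 12 lower in WT, and 19 to 24 higher and 7 to 8 lower in Pctp-/- livers. Depth per gene is not known from FPKM, so low genes such as Atp6v0d2 on chow carry an unknown counting error. Diet and the difference in read quality cannot be told apart. The cause of the changes that follow was not tested.

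The median log2 fold change of the 42 genes for diet in WT livers was 0.26 after quantile normalization and 0.22 with median-of-ratios scaling, and 0.20 to 0.39 on leaving out 1 library. For the knockout on MCD it was 0.020 under either scaling and -0.14 to 0.037 on leaving out 1 library. For the difference of the diet effects it was 0.034 and 0.030, and -0.15 to 0.052. The count called lower in Pctp-/- livers on MCD was 1 (Sqstm1) with a mean FPKM of at least 5, and 0 to 1 on leaving out 1 library, as was the count for the difference. These knockout and difference medians thus have no stable sign.

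Genes that were not called changed sign as follows. Lamp1 for diet in WT livers was -0.0029 after quantile normalization, -0.051 with median-of-ratios scaling and -0.016 with a common total. Sqstm1 for diet in Pctp-/- livers was 0.089 after quantile normalization and -0.033 to 0.017 on leaving out 1 library. For the knockout on MCD, quantile normalization and median-of-ratios scaling gave 0.065 and 0.057 for Tfeb and 0.030 and 0.029 for Map1lc3b. Leaving out 1 library there gave -0.10 to 0.034 for Tfeb and -0.031 to 0.12 for Lamp1, and for the difference -0.099 to 0.089 for Map1lc3b.

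Groups share replicate numbers in the labels, but these number different mice, and deviations of same-numbered libraries correlated at -0.097 to 0.225, so they were not taken as pairs. With a replicate block the counts were 20 higher and 9 lower in WT and 20 and 7 in Pctp-/- livers, with 0 for the knockout and the difference.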
